A study of Homo sapiens with 6 samples.

Results

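FRK and the Src-family tyrosine kinases were examined as a set of 7 genes among the 16200 in the deposited table: FRK, SRC, YES1, FYN, LYN, PTK6 and CSK. FRK was chosen by its log2 fold change between the same NC and sgKCNQ3 libraries, as one of the largest rises, so its values are given as a description with no test. The other 6 genes were listed as relatives of FRK or as the kinase that restrains the family. Messenger RNA was measured by poly(A)-selected RNA sequencing in RBE, an established human cell line from a cancer of the bile ducts inside the liver (intrahepatic cholangiocarcinoma). The 6 libraries comprised 3 labelled NC, the reference, and 3 labelled sgKCNQ3, a name that by convention means a single guide RNA directed at KCNQ3, a potassium channel gene. The labels add no other agent, time or allele, and do not say what kind of Cas protein was used, whether the cells were a clone or a pool, or whether libraries came from separate cultures. The p-values therefore rest on library-to-library spread alone, and that spread may be technical.

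Src-family kinases are membrane-anchored non-receptor tyrosine kinases that relay signals from growth factor receptors and integrins to adhesion, migration and RAS-ERK signalling. They are switched off when CSK phosphorylates a tyrosine in their C-terminal tail, and switched on when phosphatases remove that phosphate. SRC, YES1 and FYN are widely expressed, whereas LYN is best known from blood cells and is also made by many carcinomas. FRK and PTK6 (also called BRK) form a related branch found mostly in epithelia. FRK has been described as a growth suppressor in epithelial cells. These kinases are regulated chiefly at the protein level, and neither protein nor phosphorylation was analysed here.

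The genes lie at separate loci in GRCh38 (GENCODE release 29). FRK spans chr6:115931149-116060758 on the minus strand, and FYN lies on the same chromosome and strand at chr6:111660332-111873452. YES1 lies at chr18:721588-812546 (minus strand) and CSK at chr15:74782057-74803198 (plus strand). SRC at chr20:37344685-37406050 (plus strand) and PTK6 at chr20:63528001-63537370 (minus strand) share chromosome 20. No gene that overlaps a member in that annotation has a row in the table.

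The start regions of FRK and YES1 are shown because these are the members with the largest and the next largest rise, and they differ in composition. RefSeq windows (GRCh38.p14) that run from 250 bases before to 50 bases after a transcript start were matched for 4 of the 7 members, FRK, YES1, FYN and CSK. The FRK window is chr6:116060842-116061141 and the YES1 window is chr18:812193-812492, both printed 5′ to 3′ on the minus strand. The FRK window lies outside the GENCODE span of FRK given above, and the YES1 window lies inside that of YES1. The RefSeq starts used here are thus not the 5′ ends of those spans. Capitals mark matches on either strand. The motifs searched were the core bound by ETS factors, with the letters GGAAG, and the AP-1 motif, with the letters TGANTCA. The others were the GC box, written GGGCGG, and the TATA box, written TATAAA. No match overlaps another in these windows.
FRK: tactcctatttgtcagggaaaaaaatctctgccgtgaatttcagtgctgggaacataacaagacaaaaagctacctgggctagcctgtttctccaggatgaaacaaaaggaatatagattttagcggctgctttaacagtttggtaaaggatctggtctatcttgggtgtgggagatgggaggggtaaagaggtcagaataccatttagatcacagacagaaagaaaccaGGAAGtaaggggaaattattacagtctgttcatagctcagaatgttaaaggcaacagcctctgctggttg
YES1: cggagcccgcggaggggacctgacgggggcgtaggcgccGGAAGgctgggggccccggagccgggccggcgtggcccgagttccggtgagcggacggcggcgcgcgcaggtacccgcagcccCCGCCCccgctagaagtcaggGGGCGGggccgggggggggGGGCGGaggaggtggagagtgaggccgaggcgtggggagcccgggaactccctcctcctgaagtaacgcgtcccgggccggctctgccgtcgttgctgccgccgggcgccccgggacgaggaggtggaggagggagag
The FRK window held 42.3% G and C and 2 CpG dinucleotides, while the YES1 window held 78.7% and 39. The median over all 35116 windows was 58.7% and 14 CpG. FRK had 1 match to the ETS core and none to the other motifs, and YES1 had 1 match to the ETS core and 3 to the GC box. The ETS core occurred in 71.9% of all windows of this length, the GC box in 45%, the TATA box in 11.5% and AP-1 in 7.71%, so a match is a description of the letters and not a binding site. FYN has 4 windows, with 38% to 82.3% G and C, and the single CSK window held 54.3%.

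Total estimated counts were 15601283 to 16089500 per library. Of 12565 genes that passed the filter on low counts, 29.1% were called by edgeR's quasi-likelihood test at an adjusted p below 0.05, 14% higher and 15.1% lower in sgKCNQ3. Higher calls made up 48.2% of all calls with TMM scaling, 64.5% with library size alone, 80.9% on log2(TPM + 1) and 39.8% after removal of length and GC trends. KCNQ3 itself held 256, 257 and 252 counts in the NC libraries, against 222, 206 and 191 with the guide (log2 fold change -0.33, SE 0.0841, edgeR adjusted p 0.00446). Of 11 tested cholangiocyte markers 6 were called higher, and the marker list summed to 3700 to 3824 CPM (counts scaled to library size) in NC and 4078 to 4280 in sgKCNQ3, with KRT7 at 1404 and KRT19 at 493 CPM in NC. The cystic fibrosis channel gene CFTR held at most 3 counts in any library. Leukocyte markers summed to 88.0 to 95.2 CPM in NC and 72.3 to 77.1 in sgKCNQ3, nearly all of it the lysosomal gene CD68. CD68 and CSF1R were called lower, and the other 6 leukocyte markers in the table, including PTPRC and CD3E, held at most 2 counts in any library. Fibroblast and endothelial markers summed to 23.3 to 25.3 CPM in NC and 31.0 to 35.4 in sgKCNQ3, with PDGFRA called higher among 3 tested. Hepatocyte markers summed to 103.7 to 105.8 CPM in NC and 103.9 to 112.6 in sgKCNQ3. Nearly all of that was SERPINA1, with means of 99.2 and 102.8 CPM. ALB, APOA1, TTR, CYP3A4 and HP held at most 7 counts in any library. The part of these marker shifts in the results on the kinases was not tested. In bulk RNA, fewer cells that express a gene and less RNA per cell cannot be told apart.

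Length-scaled levels put SRC first and FRK and PTK6 last. On the TPM scale, which corrects for gene length and so allows comparison between genes, mean levels in NC were 46.6 ± 0.641 for SRC (SD, n = 3 here and below), 27.9 ± 1.71 for FYN and 27.4 ± 1.90 for CSK. YES1 followed at 19.4 ± 1.03 TPM and LYN at 12.6 ± 0.757. FRK stood at 0.823 ± 0.0252 and PTK6 at 0.787 ± 0.0379 TPM. FYN and CSK overlapped in this order, as did FRK and PTK6, and the other neighbours did not overlap in NC. SRC exceeded 75.6% of tested genes in NC by mean TPM, LYN 44.3% and FRK 6.26%. The TPM of FRK rests on a long gene model, with a length of 12186 bases implied by its deposited counts and FPKM, against 2643 for PTK6. FRK thus held 97 to 104 counts per NC library where PTK6 held 18 to 23, at nearly the same TPM.

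**Figure D1:**
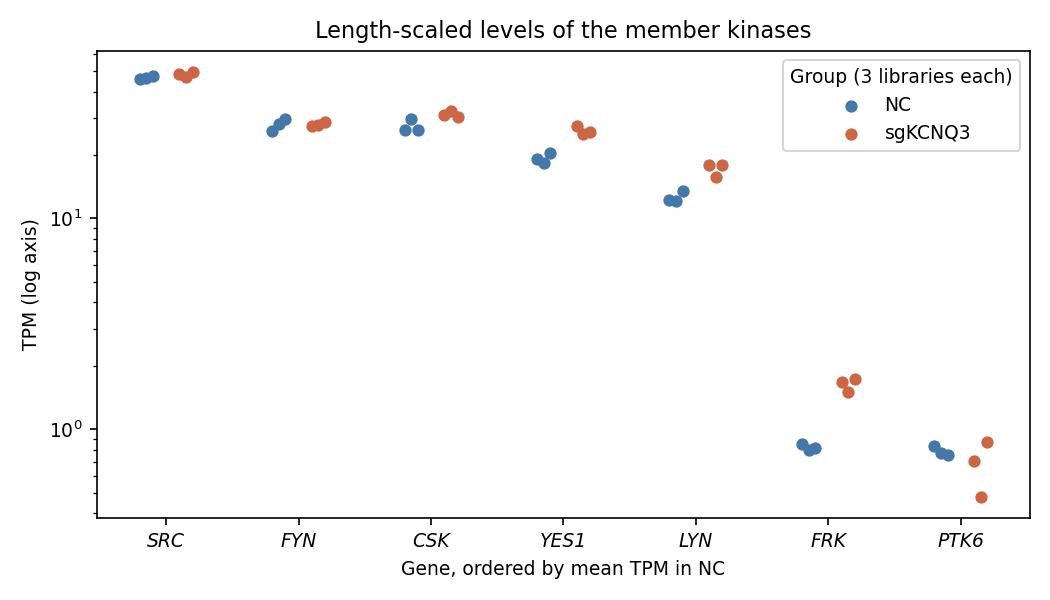
TPM of the 7 kinases in each of the 6 libraries on a log axis, with genes ordered by their mean in NC. Each point is a library; SRC lies highest in both groups, and FRK moves from the level of PTK6 in NC to above it in sgKCNQ3.

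In sgKCNQ3 the order of means differed from NC in 1 place, where CSK stood above FYN. Mean TPM was 48.3 ± 1.20 for SRC, 31.1 ± 1.07 for CSK and 27.99 ± 0.537 for FYN. YES1 reached 26.2 ± 1.26 TPM, where its highest library (27.6) overlapped the lowest of FYN (27.56). LYN reached 17.2 ± 1.23, FRK 1.64 ± 0.123 and PTK6 0.687 ± 0.196 TPM, and FRK no longer overlapped PTK6. As a share of the summed TPM of SRC, YES1, FYN, LYN, FRK and PTK6, SRC made up 43.1% ± 0.869 in NC and 39.6% ± 0.552 in sgKCNQ3. YES1 made up 17.9% ± 0.583 and 21.4% ± 0.849, and LYN 11.7% ± 0.321 and 14.1% ± 0.624. FRK remained a small part of this sum, at 0.763% ± 0.0399 in NC and 1.34% ± 0.0658 in sgKCNQ3.

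FRK, the member chosen for its rise, about doubled in CPM. NC libraries held 97, 104 and 100.01 estimated counts of FRK, and sgKCNQ3 libraries 200.63, 189.84 and 212. Some of these are not whole numbers because the deposited counts are estimates. In CPM, FRK held 6.29, 6.57 and 6.39 in NC against 12.63, 12.04 and 13.27 in sgKCNQ3. The means were 6.42 ± 0.141 and 12.7 ± 0.613 CPM, a ratio of 1.97, and every sgKCNQ3 value lay above every NC value, as the choice of FRK favours. The log2 fold change was 0.98, given without an SE because FRK was chosen by this value. Among the 10908 tested genes whose log2 CPM averaged 2 or more, FRK ranked 4 by rise, between ERBB3 (1.06) and A1CF (0.93). Among all 12565 tested genes, weakly expressed ones included, it ranked 41 by rise and 75 by size of change. A further ranking took only genes with a mean log2 CPM of 2 or more that were called higher with groups that did not overlap. There RAB27B (0.839) held place 10 and TRERF1 (0.835) the next place.

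**Figure D2:**
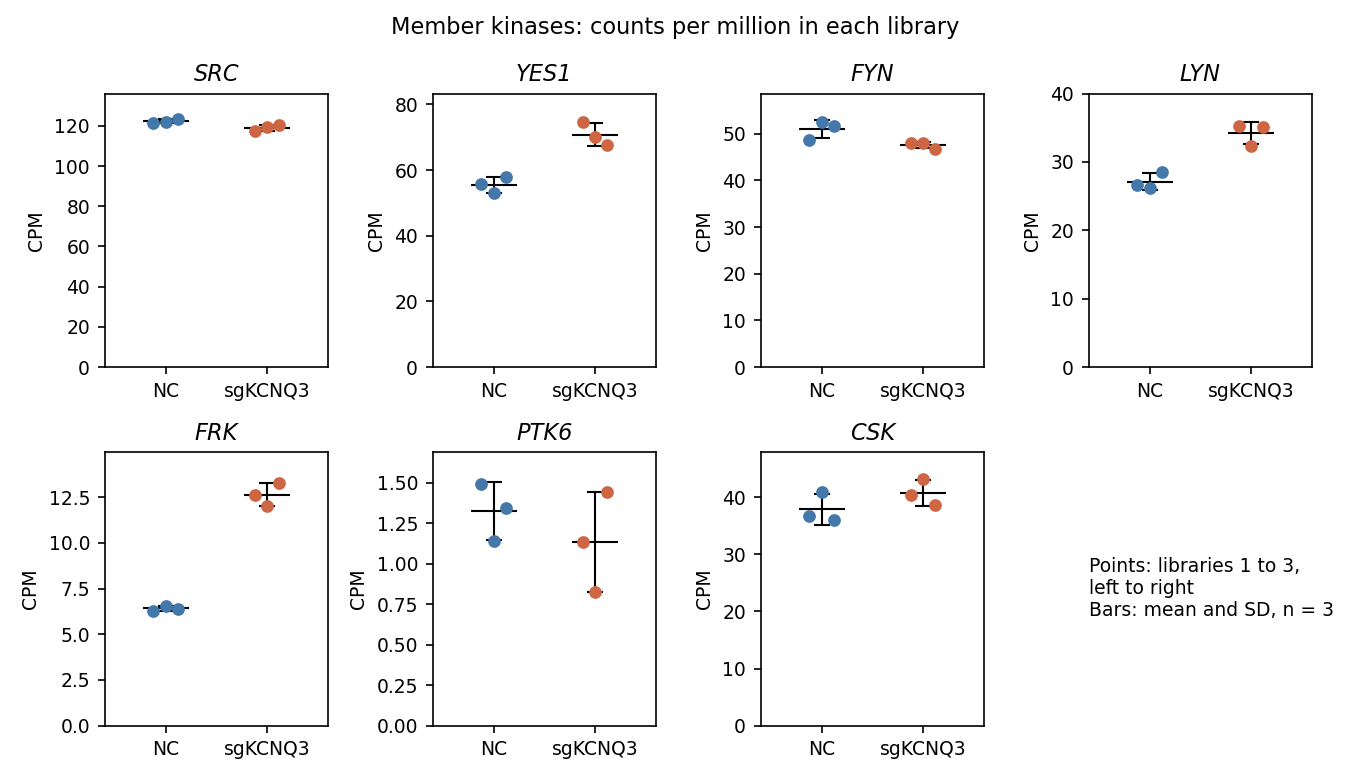
CPM of each kinase in the 6 libraries, with points for libraries and bars for the mean and SD of 3. All 3 sgKCNQ3 libraries lie above all 3 NC libraries for FRK, YES1 and LYN, and the groups overlap for PTK6 and CSK. For SRC and FYN, neither of them called, all 3 sgKCNQ3 libraries lie slightly below all 3 NC libraries. Groups that do not overlap were found for 41.7% of all tested genes.

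YES1, the closest relative of SRC, rose. Libraries of NC held 858, 839 and 906 estimated counts of YES1, against 1188, 1103.98 and 1082 in sgKCNQ3. In CPM these were 55.6, 53.0 and 57.9 for NC against 74.7, 70.0 and 67.7 in sgKCNQ3, so the groups did not overlap. The mean went from 55.5 ± 2.47 to 70.8 ± 3.54 CPM (log2 fold change 0.35, SE 0.0521, edgeR adjusted p 1.74e-05). LYN, at chr8:55879813-56014168 (plus strand), rose by a similar amount. It held 410, 415 and 447 counts in NC and 562, 511 and 560 in sgKCNQ3, and its CPM values of 26.6, 26.2 and 28.6 in NC all lay below the 35.31, 32.38 and 35.04 of sgKCNQ3. The LYN mean went from 27.1 ± 1.27 to 34.3 ± 1.62 CPM (log2 fold change 0.34, SE 0.0642, edgeR adjusted p 3.23e-04). YES1 and LYN were thus 2 of the 6 members other than FRK called, both higher, or 33.3% beside 29.1% of all tested genes. Both kept their call under each of the 16 alternative analyses, with log2 differences of 0.28 to 0.42 for YES1 and 0.26 to 0.42 for LYN.

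SRC and FYN passed no threshold, and their intervals exclude rises of the size seen in YES1 and LYN. SRC, the founding member of the family, held 1873, 1928 and 1930 counts in NC and 1869, 1881 and 1923 in sgKCNQ3. Its CPM values of 121, 122 and 123 in NC lay just above the 117, 119 and 120 of sgKCNQ3. Groups that do not overlap were found for 41.7% of tested genes, and the SRC difference was small (log2 fold change -0.04, 95% interval -0.12 to 0.05, edgeR adjusted p 0.513). FYN held 752, 833 and 807 counts in NC and 764, 757 and 748 in sgKCNQ3. In CPM this was 48.8, 52.6 and 51.6 in NC against 48.0, 47.98 and 46.8 in sgKCNQ3 (log2 fold change -0.10, 95% interval -0.21 to 0.01, edgeR adjusted p 0.165). On log2(TPM + 1) the signs of SRC (0.05) and FYN (0.01) turned, and that scale moved the median over all tested genes from -0.007 to 0.065.

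PTK6, the relative of FRK in the epithelial branch, was too weakly expressed to be measured closely. It held 23, 18 and 21 counts in NC and 18, 13 and 23 in sgKCNQ3, or 1.32 ± 0.178 and 1.13 ± 0.308 CPM. The groups overlapped, and the 95% interval of its log2 fold change of -0.22 ran from -0.78 to 0.34 (edgeR adjusted p 0.576), so that a change of moderate size in either direction was not detectable at this depth. CSK, the inhibitory kinase of the family, held 566, 648 and 562 counts in NC and 643, 681 and 618 in sgKCNQ3. Its CPM means were 37.9 ± 2.69 and 40.7 ± 2.26 with overlapping groups (log2 fold change 0.11, 95% interval -0.02 to 0.23, edgeR adjusted p 0.212). CSK was called higher with length and GC trends removed (0.18, edgeR adjusted p 0.0336) and on log2(TPM + 1) (0.18, limma adjusted p 0.0437).

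Transcript length and base composition moved with the fold changes across all genes and differed among the kinases. Over 12509 tested genes, the log2 fold change had a Spearman's rho of 0.321 with the length of the longest protein-coding GENCODE transcript and -0.262 with its GC content, genes not being independent replicates. The FRK transcript, at 13230 bases and 38.9% GC, was longer than 98.5% of tested genes. YES1 had 4639 bases and 37.7% GC, a GC content above that of only 6.55% of tested genes, and LYN 5808 bases and 45.7%. SRC (4630 bases, 59.3% GC), PTK6 (2931 bases, 57.5%) and CSK (2767 bases, 63.6%) were richer in GC. After the trends with length and GC content were removed from every library, the log2 fold change was 0.82 for FRK, 0.28 for YES1 (edgeR adjusted p 1.23e-04) and 0.26 for LYN (edgeR adjusted p 0.0025). These differences were smaller than without the removal and of the same direction, and YES1 and LYN were still called.

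**Figure D3:**
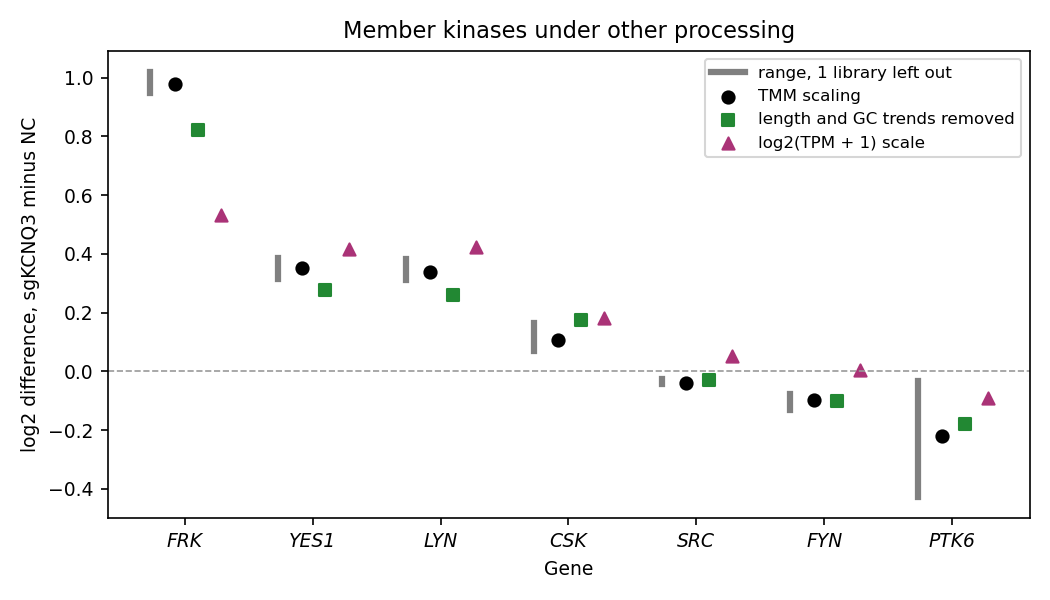
Difference in sgKCNQ3 minus NC for each kinase on the log2 scale under TMM scaling (circles), with length and GC trends removed (squares) and on log2(TPM + 1) (triangles), with the range over 6 analyses that each left out a library (grey bars). FRK, YES1, LYN and CSK stay above 0 in all of them, and PTK6 stays below 0, with CSK and PTK6 not called under TMM scaling. SRC ranges from -0.04 to 0.05 and FYN from -0.13 to 0.01.

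Other listed relatives of the family were close to absent. LCK, FGR and BLK held at most 1 count in any library, and the BRK-branch kinase gene SRMS and the CSK relative MATK at most 5, so none of these 5 genes passed the filter. Outside the family, 14 of 19 listed non-receptor tyrosine kinases were tested, and 2 were called higher and 1 lower, or 21.4% beside 29.1% of all tested genes. Their median log2 fold change was -0.01, beside -0.007 for all tested genes. PTK2, which encodes the focal adhesion kinase that recruits SRC to integrin sites, rose from 200 to 232 CPM (log2 fold change 0.21, edgeR adjusted p 2.73e-04). The cytokine receptor kinase JAK1 rose (0.15), and ABL2, an actin-binding relative of ABL1, fell (-0.20). ABL2 lost its call on log2(TPM + 1). On that scale 2 genes of this list were called higher and 0 lower, beside 2588 higher and 613 lower among all tested genes. JAK3 held 7 to 10 counts in NC and 12 to 19.98 in sgKCNQ3, and its log2 fold change of 0.82 passed no threshold (edgeR adjusted p 0.0721). Without sgKCNQ3 replicate 2, JAK3 was called and 5 of the 14 tested genes of this list were called in all. Over all genes, 3471 of 12653 were called in that analysis.

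Genes known to set the activity of the family follow. Of 11 tyrosine phosphatases, 9 were tested, and 2 were called, both higher, or 22.2% beside 29.1% of all tested genes (median log2 fold change 0.005). PTPRJ, a receptor phosphatase also known as DEP-1, held 772, 720 and 684 counts in NC and 1017, 1065 and 979 in sgKCNQ3. Its mean went from 46.4 to 64.2 CPM (log2 fold change 0.47, SE 0.0567, edgeR adjusted p 9.98e-07). PTPN11, which encodes SHP2, rose from 271 to 325 CPM (0.26, edgeR adjusted p 2.21e-05). With length and GC trends removed, PTPRJ stood at 0.365 and PTPN11 at 0.161, both still called. PTPN12 (-0.095) was not called in the main analysis. It was called lower with those trends removed (-0.124, edgeR adjusted p 0.00892) and without NC replicate 2. PTPRE (0.162) was called higher only with library size alone and on log2(TPM + 1). PTPN1 (-0.06) and PTPRA (-0.06), which encode phosphatases that act on the tail tyrosine, passed no threshold, and over the 16 alternatives they ranged from -0.095 to 0.027 and from -0.088 to 0.025.

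Of 10 membrane scaffold and ubiquitin ligase genes, 9 were tested, with 2 called higher and 1 lower, or 33.3% beside 29.1% of all tested genes (median 0.04). PAG1, the lipid-raft adaptor that brings CSK to the membrane, held 566, 510 and 538 counts in NC and 715, 737 and 708 in sgKCNQ3. PAG1 went from 34.4 to 45.3 CPM (log2 fold change 0.40, SE 0.0595, edgeR adjusted p 1.98e-05). CUL5, the cullin of a ligase that removes active SRC, rose by 0.30 (edgeR adjusted p 0.00248). AKAP12, a scaffold known as SSeCKS, fell from 867 to 664 CPM (log2 fold change -0.39, edgeR adjusted p 1.46e-08). With length and GC trends removed, PAG1 stood at 0.25, CUL5 at 0.17 and AKAP12 at -0.50, each still called. The call of CUL5 there was close to the threshold (edgeR adjusted p 0.0483).

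Among 9 myristoylation, transport and chaperone genes, all tested, 1 was called higher and 1 lower, or 22.2% beside 29.1% of all tested genes (median -0.08). HSP90AB1, a chaperone of many kinases, had a log2 fold change of 0.17 (edgeR adjusted p 9.77e-04). NMT2, an N-myristoyltransferase that attaches the lipid anchor of Src-family kinases, stood at -0.18 (edgeR adjusted p 0.0045) and lost its call on log2(TPM + 1) and without sgKCNQ3 replicate 1, each of which left 1 gene called. Without sgKCNQ3 replicate 2, 3 of the 9 genes of this list were called, beside 3471 of 12653 tested genes.

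Substrates and adhesion adaptors were called in both directions on the count scale. Of 28 listed, 27 were tested, and 9 were called higher and 3 lower, a share of 44.4% beside 29.1% of all tested genes, with a median log2 fold change of 0.07. With length and GC trends removed the count was 5 higher and 3 lower, beside 1321 higher and 2002 lower among all 12565 tested genes. On log2(TPM + 1) it was 11 higher and 0 lower, beside 2588 higher and 613 lower among all tested genes. GAB1, a docking protein for SHP2 and PI3K, went from 5.202 to 7.38 CPM, a called rise (log2 fold change 0.50, edgeR adjusted p 0.00326). SH3PXD2B, an invadopodium scaffold also known as TKS4, rose by 0.38 (edgeR adjusted p 0.00134), and the adaptor gene CRK by 0.16 (edgeR adjusted p 0.0029). PTK2 belongs to this list too. Of the called rises, CTNND1, EPS8, VCL and WASL lost their calls with length and GC trends removed. VCL also lost its call without NC replicate 1 and without NC replicate 3. WASL also lost its call without NC replicate 2 and without sgKCNQ3 replicate 1. PTK2, GAB1, SH3PXD2B, CRK and AFAP1L2 kept their calls in all 16 alternatives. The called falls were CDCP1, a transmembrane substrate of the family (-0.18, edgeR adjusted p 6.35e-04), PXN, which encodes paxillin (-0.16, edgeR adjusted p 0.00203), and BCAR1, which encodes p130Cas (-0.14, edgeR adjusted p 0.0369). CDCP1 and PXN lost their calls on log2(TPM + 1). BCAR1 lost its call in 9 of 16 alternatives, among them the analyses without NC replicate 2, without sgKCNQ3 replicate 1 and without sgKCNQ3 replicate 2. It also lost its call with length and GC trends removed, where AFAP1 was called lower instead (-0.117, edgeR adjusted p 0.0368).

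Of 8 genes for substrates and partners of FRK and PTK6, all tested, 1 was called higher and 2 lower, or 37.5% beside 29.1% of all tested genes (median -0.11). RB1, the retinoblastoma gene, had a log2 fold change of 0.14 (edgeR adjusted p 0.0227) and lost its call with length and GC trends removed (0.06), without NC replicate 2 and without sgKCNQ3 replicate 1. ARAP1, a PTK6 substrate, stood at -0.15 (edgeR adjusted p 0.0154) and lost its call in 5 of 16 alternatives, namely library size alone, DESeq2, log2(TPM + 1), without NC replicate 2 and without sgKCNQ3 replicate 2. KHDRBS1, the RNA-binding PTK6 substrate SAM68, stood at -0.10 (edgeR adjusted p 0.047) and lost its call in 13 of 16 alternatives, among them those without NC replicate 1, NC replicate 3 and each sgKCNQ3 replicate. Without NC replicate 2 or without sgKCNQ3 replicate 1, 1 gene of this list was called, lower in each case, and 1 with library size alone, DESeq2, log2(TPM + 1) or trends removed. Over all genes, 2821 of 12665 were called without NC replicate 2, and 2737 of 12678 without sgKCNQ3 replicate 1.

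**Figure D4:**
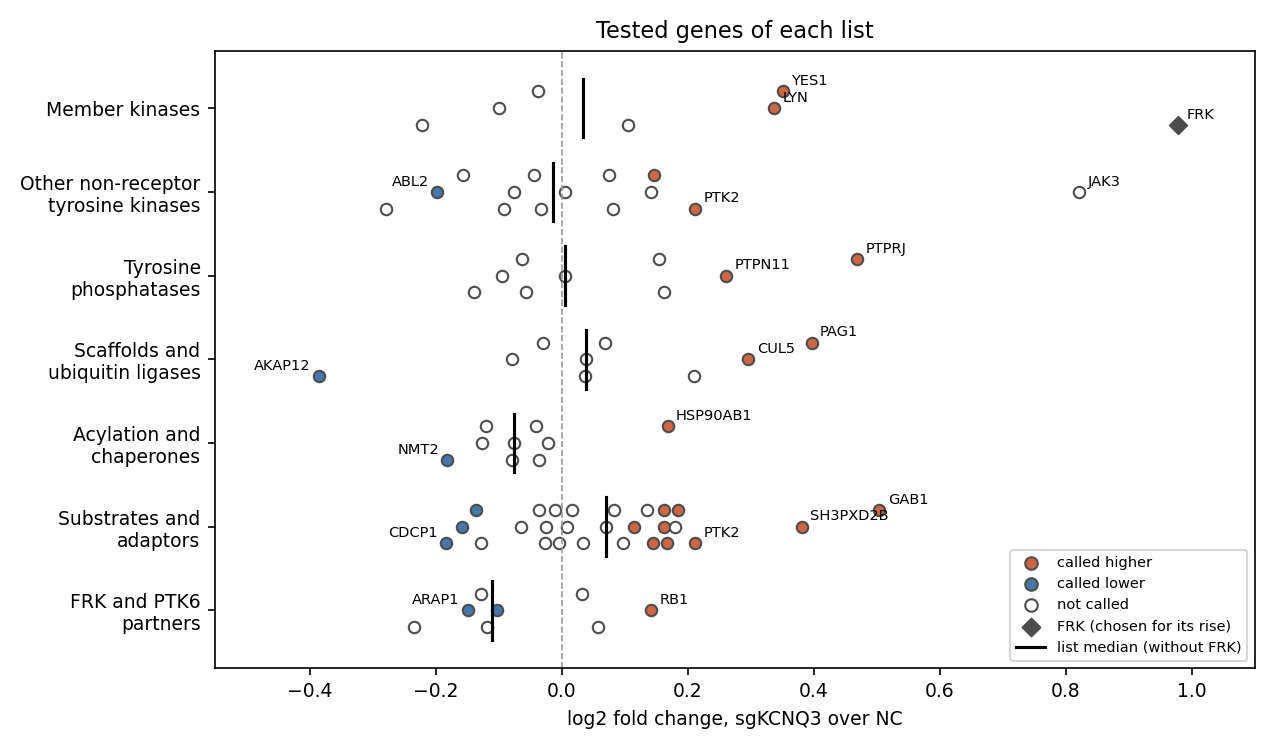
Log2 fold change of every tested gene in each list (circles filled for called genes, open for those not called), with FRK as a diamond and the list median, without FRK, as a vertical line. List medians lie between -0.11 and 0.07, while FRK, YES1, LYN, JAK3, PTPRJ, PAG1, SH3PXD2B and GAB1 lie above 0.3 and AKAP12 below -0.3.

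The genes most like FRK across the 6 libraries were DLG1, DUSP4, MBTD1, KIAA0754 and PNMA2, with Pearson's r of 0.998 to 0.999 in log2 CPM. Such values come from 2 groups of 3 libraries that stand apart and are a description of these libraries only. DLG1, a polarity scaffold, had a log2 fold change of 0.25, MBTD1, a chromatin reader, 0.63, and DUSP4, a nuclear MAP kinase phosphatase, 0.34. The other members had r values with FRK of 0.959 for LYN, 0.938 for YES1, 0.563 for CSK, -0.385 for PTK6, -0.807 for FYN and -0.82 for SRC. Of the nearest protein-coding genes along chromosome 6, NT5DC1 lies 40.1 kb from FRK and was called higher (log2 fold change 0.26, edgeR adjusted p 0.00274). On the other side, HS3ST5 held at most 1 count in any library, and HDAC2, which encodes a histone deacetylase, had a log2 fold change of 0.09 (edgeR adjusted p 0.0843).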

How the data were processed

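The authors deposited estimated counts (expected counts) per gene with no normalization, of which 5.53% to 6.33% per library were not whole numbers, beside TPM and FPKM values, per the file headers. Deposited signal columns (counts divided by a factor per library) and the authors' group means, including a whole-number score, were not used. The submitters' processing notes name GRCh38.p13 as the genome build. Aligner, counter and strand setting: not given in the sources used here.

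Rounded counts were compared by edgeR 4.0.16 under R 4.3.3 (filterByExpr with a minimum count of 10, TMM, robust quasi-likelihood F test, Benjamini-Hochberg adjustment over 12565 genes, threshold 0.05). The SE is the log2 fold change divided by the square root of F, and 95% intervals use the moderated degrees of freedom. An exact permutation test of 3 against 3 cannot go below 0.1. The scripts were tested on simulated data, where the share of false calls lay above the nominal 0.05, so the adjusted p-values are somewhat too small there and calls close to the threshold are less certain. Alternatives used DESeq2 1.42.0, limma 3.58.1 (voom, and log2(TPM + 1)) and a removal of each library's length and GC trend (splines with 5 degrees of freedom), with length and GC for 16032 genes. Figures were drawn with matplotlib 3.10.9.

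Members and lists were chosen with earlier results of these data known. Named genes are the members, up to 6 called genes per list with the smallest p, genes tied directly to a member, the 5 genes most correlated with FRK whose log2 CPM averaged 2 or more, and the neighbours of FRK. JAK3, CFTR, PTPN12, PTPRE, AFAP1, AFAP1L2, CTNND1, EPS8, VCL, WASL and the markers named were picked after their values were seen. A gene tied to FRK by this rule is not reported here.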

Additional observations from a re-analysis of the deposited data

How the results depend on the processing

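The count of called genes over all tested genes was 3658 in the main analysis and ranged from 2448 (DESeq2) to 3822 (no filter). It was 3604 with library size alone, 3323 with length and GC trends removed and 3201 on log2(TPM + 1). With a library left out it was 2687 to 3471. The log2 difference of FRK was 0.95 to 1.02 with each library left out, 0.82 with length and GC trends removed and 0.53 on log2(TPM + 1), a scale that shrinks weakly expressed genes. SRC (0.0507) and FYN (0.0055) turned sign on log2(TPM + 1) only, among the 16 alternatives. PTK6 was not tested at 2 CPM or more, and PTK6 ranged from -0.43 to -0.03 with a library left out. FRK and PTK6 partners called went from 3 to 1 with library size alone, DESeq2, log2(TPM + 1) and trends removed, and to 1 to 3 with a library left out. Chaperone and myristoylation genes called went from 2 to 1 on log2(TPM + 1), and to 1 to 3 with a library left out. Other non-receptor kinases called were 3 to 5 with a library left out, with 5 reached without sgKCNQ3 replicate 2. The cause of these changes was not tested.

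Replicate numbers are shared by the groups, but same-numbered libraries did not deviate together (correlations 0.014, -0.098 and 0.008). With the replicate block 3136 genes were called, and YES1 and LYN kept their calls, while BCAR1 and KHDRBS1 did not.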
